A study of Mus musculus with 24 samples.

Results

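Myelin is the lipid-rich membrane that oligodendrocytes wrap around axons of the brain and spinal cord. The 9 genes described here were Mbp, Mobp, Mog, Mag, Cnp, Mal, Cldn11, Myrf and Ugt8a, each a gene of mature oligodendrocytes, and they were taken by symbol from a read-count table of 54532 genes. All 9 were present and all 9 passed the filter on low counts that left 19667 genes for testing. RNA was measured in 24 libraries of mouse striatum, the brain region most affected in Huntington's disease, with the striatum of a single hemisphere of each animal as the source.

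The animals, of strain C57BL/6, had 4 genotypes. The wild-type animals (WT) carried neither change, TyrobpKO animals lacked Tyrobp, Q175 animals were heterozygous for an expanded CAG repeat knocked into the mouse Htt gene, and Q175_TyrobpKO animals carried both changes. Each genotype had 6 libraries, with replicates 1 to 3 from males and 4 to 6 from females, and the replicate numbers only name libraries. The Q175 allele sits in the endogenous gene and is not restricted to a cell type, and how the Tyrobp deletion was made was not given. Age was not given. Animal numbers of both genotypes with the deletion share an initial letter that no other animal has, and what that letter marks was not given, so it and the deletion cannot be told apart. All 6 Q175 animals share another letter, which among WT animals only replicate 3 has, so in Q175 against WT that letter and the allele can hardly be told apart either. TyrobpKO and Q175_TyrobpKO animals have the same letter.

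Tyrobp encodes an adaptor protein that carries signals from microglial surface receptors such as TREM2. Compact myelin is built from few proteins in high copy number, with Mbp holding the cytoplasmic faces of the membrane together, while Mag, Mog and Cnp sit at the inner, outer and non-compact parts of the sheath. Galactolipids made by the enzyme encoded by Ugt8a are the characteristic lipids of the membrane, and Myrf encodes the transcription factor that switches on and maintains these genes. In bulk tissue, fewer oligodendrocytes and less RNA per oligodendrocyte cannot be told apart.

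Total counts ran from 25.5 to 34.6 M reads per library, and the 9 genes took 0.5998% to 1.05% of them. Tyrobp, the deleted gene, was at 7.88 ± 1.15 CPM (reads of the gene per 1000000 reads of the library, after scaling) in WT and 0.341 ± 0.0926 CPM in TyrobpKO (SD, n = 6 each), in accord with the labels. Markers of other cell types were summed by list, and no list had a gene at 0 reads over a genotype. Sums of 8 choroid plexus markers were 25.9 to 135 CPM over WT and TyrobpKO libraries but reached 4192 CPM in Q175 and 602 CPM in Q175_TyrobpKO, with 4 libraries over 400 CPM, namely Q175 replicates 3 and 5 and Q175_TyrobpKO replicates 4 and 6. Sums of 8 cortical neuron markers fell under 50 CPM in WT replicate 4, Q175 replicates 2 and 3 and Q175_TyrobpKO replicate 6. Sums of 4 Schwann cell markers, which stand for peripheral myelin, stayed within 83.6 to 105 CPM in all libraries.

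Promoter sequences are shown for 4 of the genes because 2 of them, Mobp and Mal, had less RNA in carriers of the Q175 allele, while Mog and Cnp did not. They come from RefSeq (GRCm38.p6), which had entries for 7 of the 9 genes, and are given 5′ to 3′ in the gene's direction, up to 250 bases before the start and without annotated exon bases. Capitals mark letters of the SoxE core (ACAAAG) and of the MYRF motif (CTGGCAC or CTGGTAC), each searched on both strands.
Mobp, chr9:120149492-120149706, + strand: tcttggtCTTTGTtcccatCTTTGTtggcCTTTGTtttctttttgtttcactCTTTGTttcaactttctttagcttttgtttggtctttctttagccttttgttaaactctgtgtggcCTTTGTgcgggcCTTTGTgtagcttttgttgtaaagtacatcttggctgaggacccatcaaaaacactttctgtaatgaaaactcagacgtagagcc
Mal, chr2:127656696-127656945, - strand: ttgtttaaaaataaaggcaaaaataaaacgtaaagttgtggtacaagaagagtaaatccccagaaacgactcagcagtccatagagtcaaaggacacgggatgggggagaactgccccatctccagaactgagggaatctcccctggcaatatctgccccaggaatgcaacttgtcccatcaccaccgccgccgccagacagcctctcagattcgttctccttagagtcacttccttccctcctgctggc
Mog, chr17:37023399-37023648, - strand: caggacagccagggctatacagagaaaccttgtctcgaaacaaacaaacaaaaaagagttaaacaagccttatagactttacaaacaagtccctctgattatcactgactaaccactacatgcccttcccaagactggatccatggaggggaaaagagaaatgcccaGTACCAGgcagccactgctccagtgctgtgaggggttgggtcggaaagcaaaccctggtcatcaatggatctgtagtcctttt
Cnp, chr11:100574689-100574903, + strand: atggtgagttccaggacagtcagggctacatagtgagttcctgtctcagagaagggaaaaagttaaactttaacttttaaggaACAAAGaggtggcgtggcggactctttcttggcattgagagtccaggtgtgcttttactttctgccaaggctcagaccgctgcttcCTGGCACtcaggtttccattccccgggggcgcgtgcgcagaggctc
The SoxE core is bound by SOX10, which drives oligodendrocyte genes, and the MYRF motif by the product of Myrf. Mobp held 6 matches to the SoxE core and none to the MYRF motif. Mal held neither. Mog held 1 match to the MYRF motif, and Cnp held 1 match to each. In the windows not printed, Mag held 1 match to each in 2 of its entries, and Cldn11 and Ugt8a held neither. The SoxE core occurred in 16.5% and the MYRF motif in 5.93% of 32851 promoter entries of 250 bases. No other motif searched (ACAATG, in 10.7% of entries, and CAGATG or CAGCTG, an E-box that OLIG2 can bind, in 25.5%) was found in any of the 7 genes. A match here is a run of letters, not a measured binding site.

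The 9 genes spanned a wide range of levels per length. In WT, Mbp (ENSMUSG00000041607, chr18:82475146-82585637) stood at 544 ± 109 CPM per kilobase of gene length (RPKM, mean ± SD, n = 6), followed by Mobp (chr9:120149707-120181484) at 262 ± 41.0 and Cnp (chr11:100574904-100591729) at 149 ± 26.9 RPKM. Mal (chr2:127633226-127656695) had 139 ± 24.6 RPKM, Cldn11 (chr3:31149920-31164324) 96.1 ± 17.6 RPKM and Mag (chr7:30899176-30914873) 75.2 ± 16.5 RPKM. Mog (chr17:37010743-37023398) had 58.2 ± 12.1 RPKM, Ugt8a (chr3:125865271-125938619) 25.7 ± 2.24 RPKM and Myrf (chr19:10208272-10240748) 14.8 ± 2.33 RPKM. Each gene exceeded the next in this order in 6 of 6 WT libraries. Across libraries, however, the WT ranges overlapped for Cnp and Mal, Mal and Cldn11, Cldn11 and Mag, and Mag and Mog. The order was not kept everywhere: Cldn11 exceeded Mag in 4 of 6 Q175 and 3 of 6 Q175_TyrobpKO libraries, and Ugt8a exceeded Myrf in 5 of 6 Q175 libraries.

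**Figure D1:**
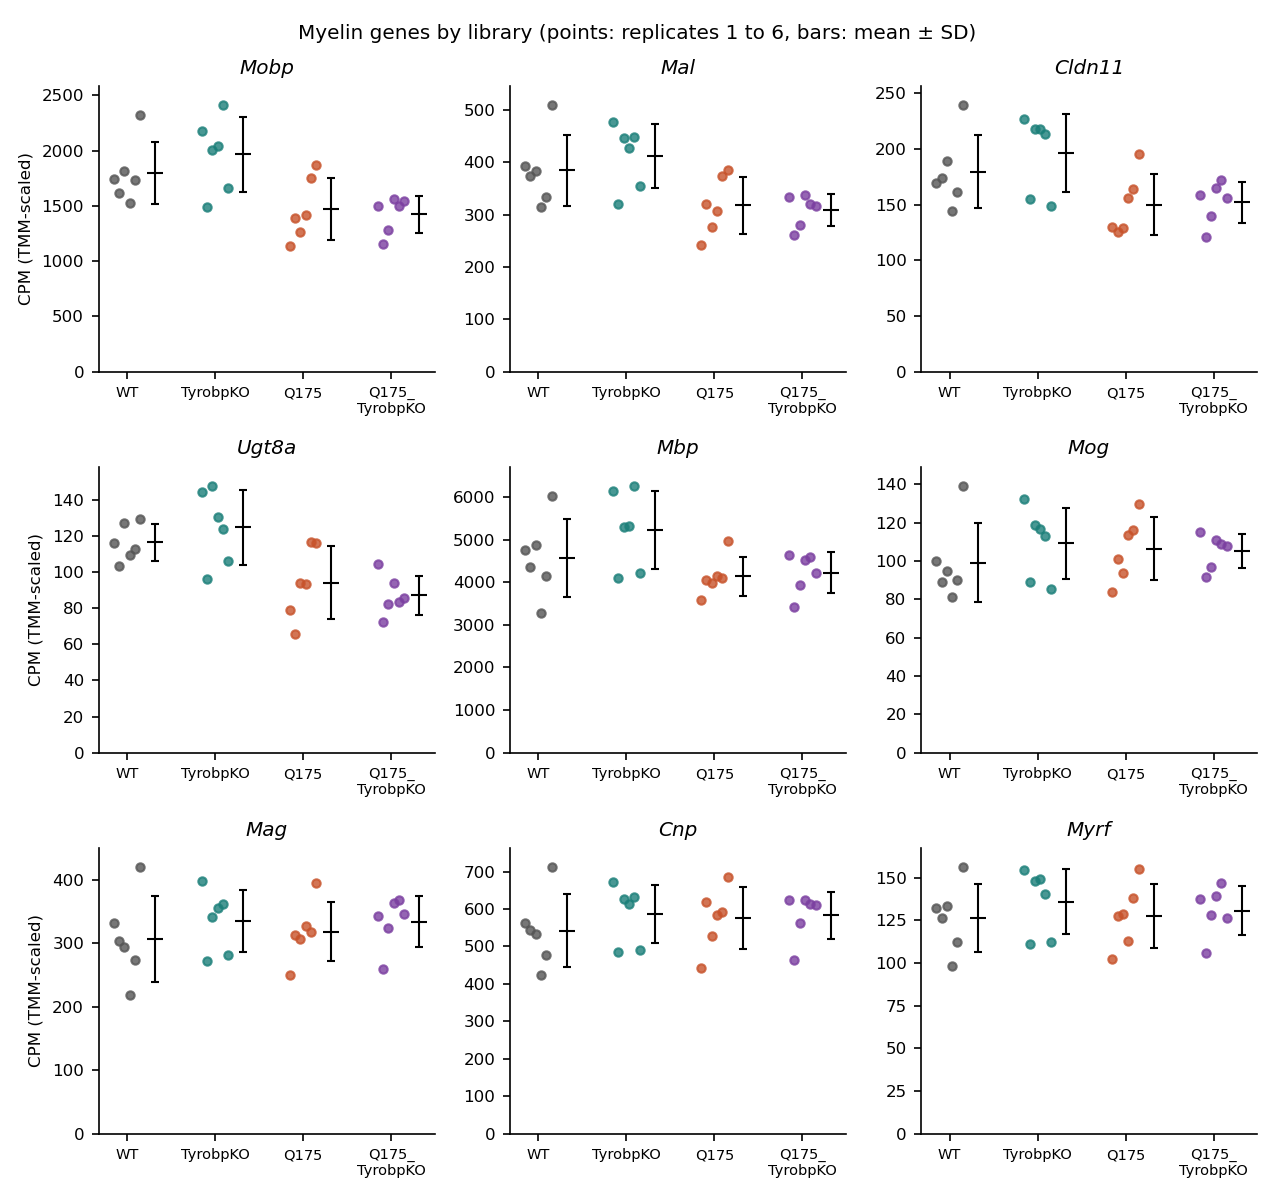
Level of each of the 9 myelin genes in CPM (y axis, from 0) in the 6 libraries of each of 4 genotypes (x axis). Points are libraries and the bar beside them is the mean ± SD; Mbp, Mobp, Mal, Cldn11 and Ugt8a are lower on average in both genotypes with the Q175 allele than in either without it, while ranges overlap for every gene.

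In Q175 against WT, which asks what the Huntington allele does when Tyrobp is intact, none of the 9 genes was called at an adjusted p under 0.05 by edgeR's quasi-likelihood test, where 9.63% of all genes were called (4.15% higher, 5.47% lower). At an unadjusted p under 0.05 there were 4 of the 9, and 4448 of the 19667 genes tested. DESeq2 called 1 of the 9, Mobp (adjusted p = 0.0498). Fold changes of the 9 nevertheless fell into 2 groups by sign, with Mbp, Mobp, Mal, Cldn11 and Ugt8a below 0 and Mog, Mag, Cnp and Myrf above 0. The median log2 fold change of the 9 was -0.15, against 0.0073 over all genes tested. No gene's CPM ranges were free of overlap, whereas 4.08% of all genes had ranges that did not overlap.

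Mobp, a small basic protein of compact myelin, ran from 1524 to 2326 CPM in WT (median 1738) and from 1136 to 1868 CPM in Q175 (median 1404). The Q175 median lay below every WT library, and the ranges overlapped. Its log2 fold change was -0.30 ± 0.11 (SE), with an edgeR adjusted p of 0.0935. Ugt8a, which makes the galactolipid of myelin, ran from 103 to 130 CPM in WT (median 114) and from 65.7 to 117 CPM in Q175 (median 93.7). Q175 libraries lay both below and within the WT range. Its log2 fold change was -0.31 ± 0.12 with an edgeR adjusted p of 0.126. Mal, a proteolipid of myelin membrane traffic, and Cldn11, the claudin of its tight junctions, had log2 fold changes of -0.28 (adjusted p = 0.135) and -0.27 (adjusted p = 0.206). Mbp stood at -0.15 ± 0.12 with an edgeR adjusted p of 0.524.

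The other 4 genes were near or above their WT levels. Mog, an outer-surface glycoprotein, had 99.2 ± 20.6 CPM in WT and 106 ± 16.6 CPM in Q175, and Cnp, an enzyme of non-compact myelin, had 542 ± 97.9 and 575 ± 83.0 CPM (SD, n = 6 each). Mag, an adhesion protein facing the axon, had 306 ± 67.3 and 318 ± 46.4 CPM. Myrf ran from 98.0 to 156 CPM in WT and from 103 to 155 CPM in Q175. Their log2 fold changes were 0.01 to 0.10, and the 95% intervals ran from -0.22 at the lowest to 0.35 at the highest.

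In Q175_TyrobpKO against TyrobpKO, the same question with Tyrobp deleted in both groups, 3 of the 9 genes were called, all lower, where 5.86% of all genes were called (2.78% higher, 3.08% lower). They were Mobp, Ugt8a and Mal, and these are the same genes that had the most negative fold changes in Q175 against WT. Mobp ran from 1489 to 2416 CPM in TyrobpKO (median 2024) and from 1154 to 1563 CPM in Q175_TyrobpKO (median 1499). All TyrobpKO libraries but the lowest exceeded every Q175_TyrobpKO library. Mobp fell by 27.8%, a log2 fold change of -0.47 ± 0.11 with an edgeR adjusted p of 0.0106.

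Ugt8a ran from 96.0 to 148 CPM in TyrobpKO (median 127) and from 72.6 to 105 CPM in Q175_TyrobpKO (median 84.4). Its ranges overlapped only between the lowest TyrobpKO library and the highest of Q175_TyrobpKO. Ugt8a fell by 30.3%, a log2 fold change of -0.52 ± 0.12 with an edgeR adjusted p of 0.0134. Mal ran from 321 to 477 CPM in TyrobpKO (median 437) and from 262 to 337 CPM in Q175_TyrobpKO (median 319), again with overlapping ranges. Mal fell by 25.4% (log2 -0.42 ± 0.12, edgeR adjusted p = 0.0301), a call lost on leaving out any of TyrobpKO replicates 1, 3, 4 and 5 or Q175_TyrobpKO replicates 2, 3, 5 and 6, with adjusted p of 0.0525 to 0.0842. The Mal call was also lost with total-count scaling (log2 -0.37, adjusted p = 0.0524), with no filter on low counts (-0.43, 0.0909) and without the 4 libraries low in cortical neuron markers (-0.42, 0.0587). The calls for Mobp and Ugt8a held in 12 of 12 fits without 1 library and in these 3. In males alone all 3 calls were lost (edgeR adjusted p of 0.0953 for Mobp, 0.169 for Mal and 0.283 for Ugt8a). In females alone those of Mobp (0.26) and Mal (0.374) were lost.

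Cldn11 had a log2 fold change of -0.38 (adjusted p = 0.0863, and 0.0249 with DESeq2, which called it) and Mbp one of -0.31 (adjusted p = 0.158). Mog, Mag, Cnp and Myrf lay between -0.06 and -0.01, all with adjusted p above 0.8, and their 95% intervals ran from -0.31 to 0.25. The median of the 9 was -0.31. No gene's ranges were free of overlap, where 4.49% of all genes had ranges that did not overlap. Without the 4 libraries over 400 CPM of choroid plexus markers, none of the 9 was called: Mobp had a log2 fold change of -0.49 (adjusted p = 0.0656), Mal -0.45 (0.119) and Ugt8a -0.52 (0.0752), from 6 TyrobpKO and 4 Q175_TyrobpKO libraries.

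Because Mobp, Mal, Cldn11, Ugt8a and Mbp had negative fold changes on both Tyrobp backgrounds, the Q175 effect was also averaged over them in the same fit, a contrast chosen after the data had been seen. With 12 carriers and 12 non-carriers, 4 of the 9 genes were called, all lower, where 18.0% of all genes were called and 9.17% were called lower. Ugt8a fell by 25.1% (log2 -0.42 ± 0.09, edgeR adjusted p = 0.00172), Mobp fell by 23.3% (-0.38 ± 0.08, 0.00100), Mal fell by 21.7% (-0.35 ± 0.08, 0.00354) and Cldn11 fell by 20.2% (-0.32 ± 0.09, 0.0137). These 4 calls held when each of the 24 libraries was left out in turn.

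Mbp, the most abundant of the 9, had a log2 fold change of -0.23 in the averaged contrast with an adjusted p of 0.0701, and leaving out WT replicate 4, TyrobpKO replicate 2, TyrobpKO replicate 6 or Q175 replicate 6 each brought that under 0.05 (0.0139 to 0.0472). Mog, Mag, Cnp and Myrf were at 0.02, 0.02, 0.03 and -0.02. Their 95% intervals excluded a fall as large as that of Mobp, the lowest bound being -0.19 for Myrf. Without the 4 libraries high in choroid plexus markers, Mobp, Mal and Ugt8a were still called and Cldn11 was not (log2 -0.32, adjusted p = 0.0777). Without the 4 libraries low in cortical neuron markers, 5 genes were called, with Mbp added (-0.27, adjusted p = 0.0435).

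**Figure D2:**
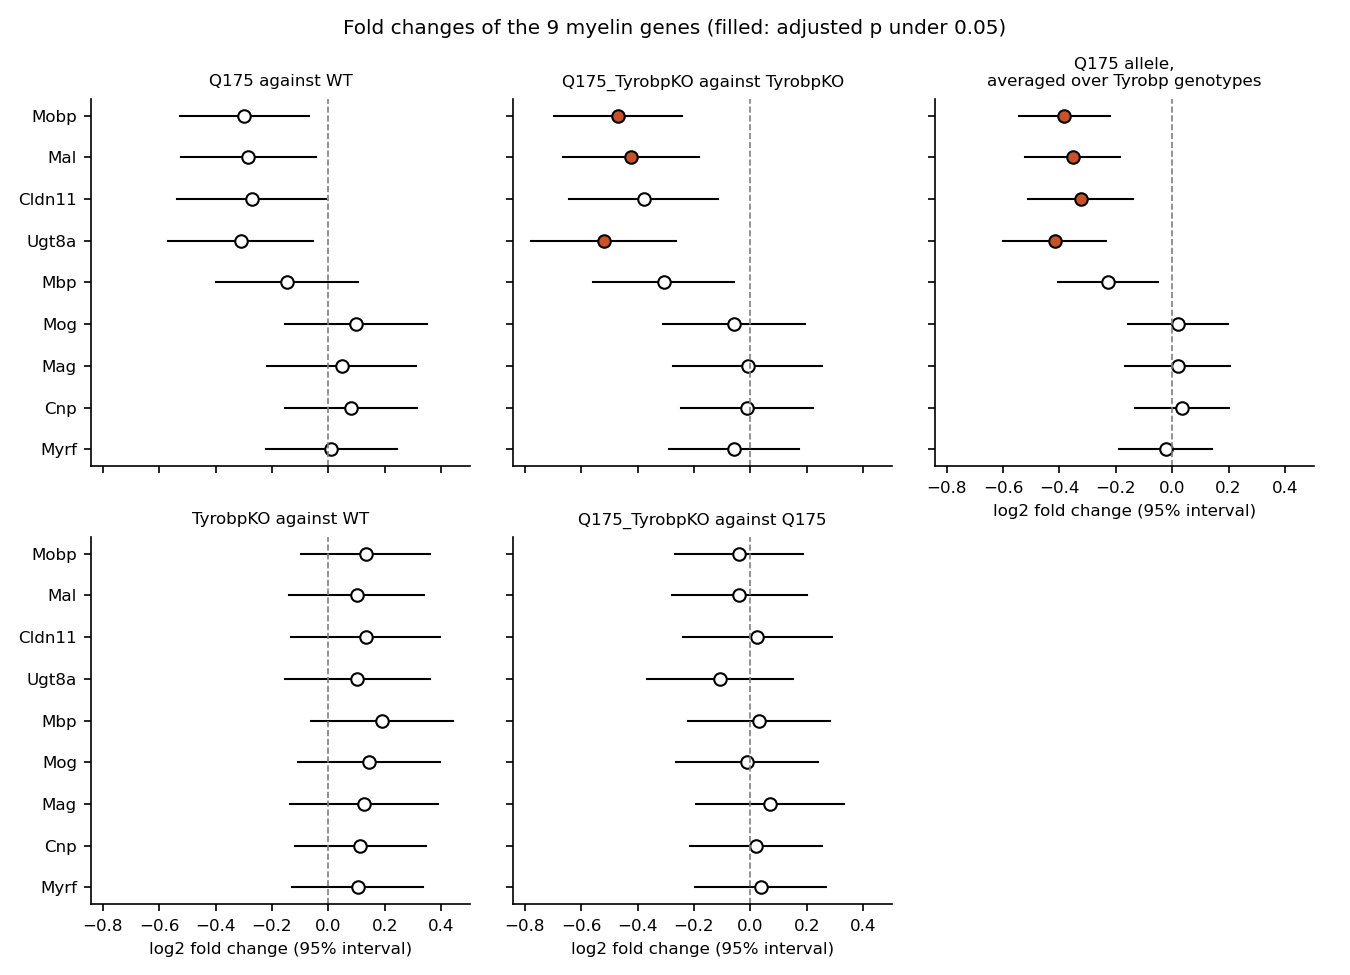
Log2 fold change (x axis) of each of the 9 myelin genes (y axis) in 4 pairwise comparisons and in the averaged Q175 effect. Circles are estimates, lines 95% intervals and filled circles adjusted p under 0.05; filled circles appear only for Mobp, Mal, Cldn11 and Ugt8a, and only in contrasts of carriers with non-carriers of the Q175 allele.

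To see how the genes differed among themselves, each gene's log2 CPM was taken less the mean of all 9 in the same library, which removes the library's scaling and its overall myelin content. These differences sum to 0 in each library, so a gene that falls raises the others, and they are given as a description. Mog lay at -1.999 to -1.80 in the 12 libraries without the Q175 allele and at -1.76 to -1.59 in the 12 with it. Cnp lay at 0.49 to 0.62 without the allele and at 0.65 to 0.94 with it. Both genes were thus free of overlap between 12 and 12 libraries. Of all genes, 0.381% were so on this scale. The subtraction takes out variation that the 9 share and that other genes need not share. The shares of all genes on this scale, here and below, are therefore no like background for the 9. In CPM the ranges of Mog and of Cnp overlapped between 12 and 12 libraries.

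Within Tyrobp genotype, Mog and Cnp were above without overlap in Q175 against WT, by 0.22 and 0.20 on this relative scale, where 1.39% of all genes had no overlap. In Q175_TyrobpKO against TyrobpKO, Mog, Mag, Cnp and Myrf were above by 0.19 to 0.24 and Mobp and Mal were below by 0.22 and 0.18, all without overlap, where 2.48% of all genes had none. Ugt8a and Cldn11 were lower on this scale in both comparisons (-0.22 and -0.27 for Ugt8a, -0.15 and -0.12 for Cldn11) with overlapping ranges. Mbp moved by -0.02 and -0.06, close to the mean of the 9. Neither comparison of Tyrobp deletion had a gene of the 9 without overlap, against 0.188% and 0.219% of all genes.

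**Figure D3:**
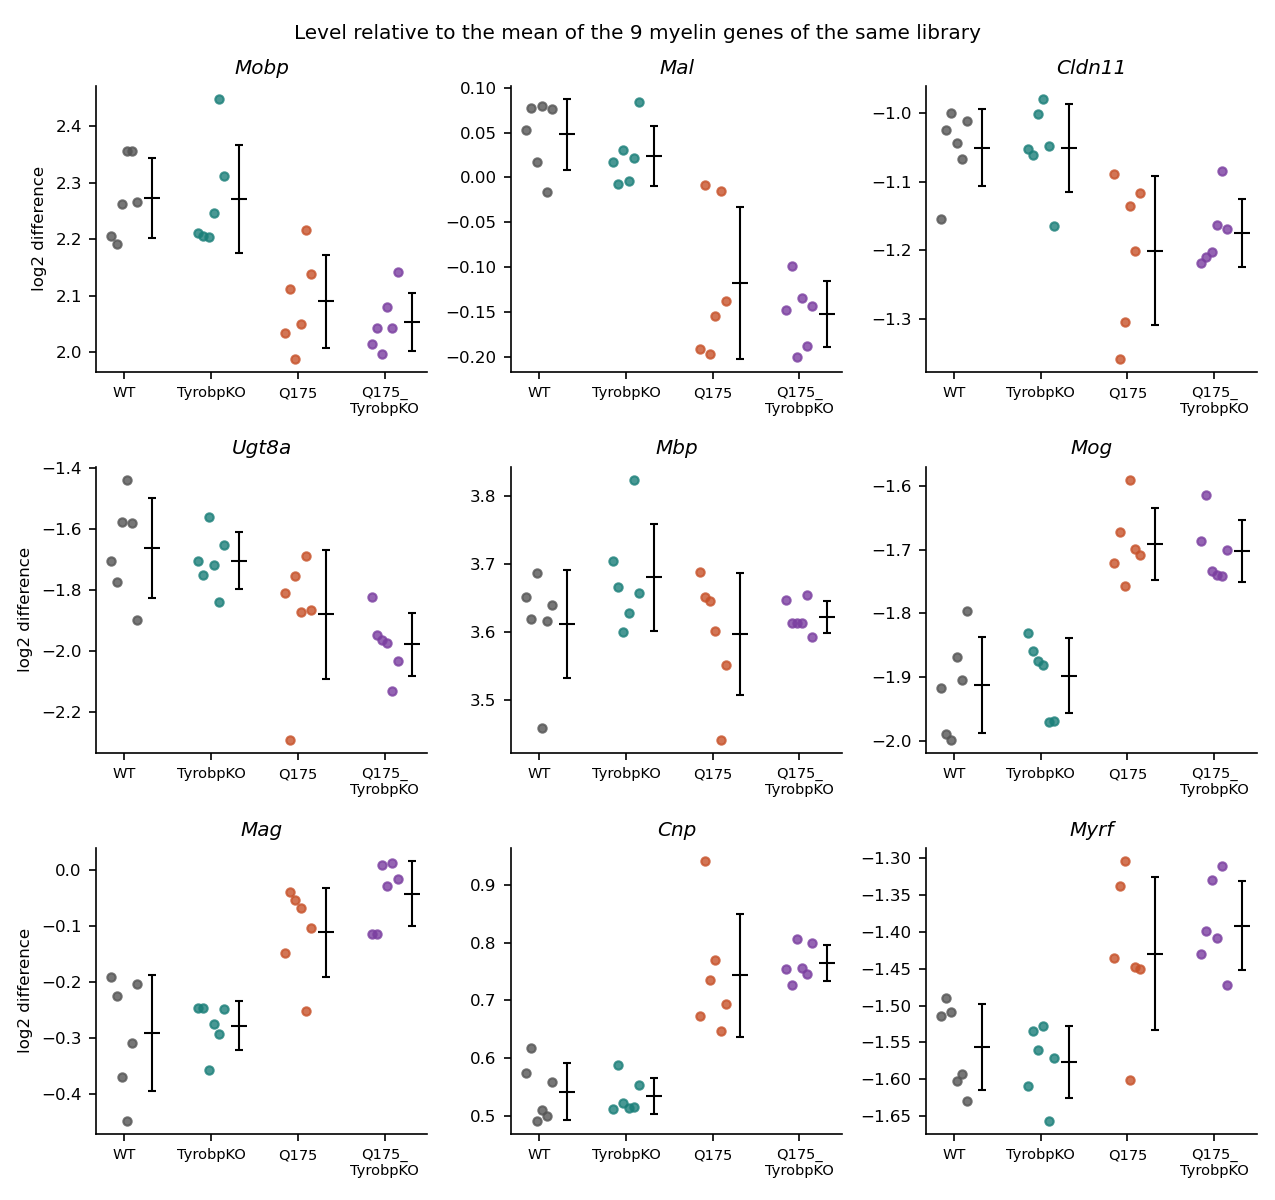
Log2 level of each myelin gene less the mean of the 9 in the same library (y axis, scale differs by panel) for 6 libraries of each genotype (x axis). Points are libraries and bars mean ± SD; Mog and Cnp are higher in all 12 libraries with the Q175 allele than in any of the 12 without it.

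Tyrobp deletion left the 9 genes without a call on either background, by edgeR, DESeq2 or limma-voom, and 0 of 9 had an unadjusted p under 0.05 in either comparison. Of the 19667 genes tested, 1269 had such a p in TyrobpKO against WT and 1187 in Q175_TyrobpKO against Q175. In TyrobpKO against WT, where 0.117% of all genes were called (0.0458% higher, 0.0712% lower), log2 fold changes were 0.10 to 0.19, positive for 9 of 9 genes, with a median of 0.13 and adjusted p of at least 0.764. Mbp was the highest, with 5224 ± 917 CPM in TyrobpKO against 4574 ± 914 CPM in WT (SD, n = 6 each), a difference smaller than the spread within either group. In Q175_TyrobpKO against Q175, where 0.158% of all genes were called (0.0458% higher, 0.112% lower), log2 fold changes ran from -0.11 for Ugt8a to 0.07 for Mag, with a median of 0.02 and adjusted p of at least 0.901. Mbp had 4139 ± 459 CPM in Q175 and 4226 ± 473 CPM in Q175_TyrobpKO. In neither comparison did any of the 9 have CPM ranges free of overlap, against 0.356% and 0.463% of all genes. The 95% intervals of the 9 genes spanned -0.37 to 0.33 in the second comparison, so shifts of up to that size are not excluded. The interaction of Q175 and Tyrobp genotype was called for none of the 9 and for 0% of all genes (707 of 19667 had an unadjusted p under 0.05, as did 0 of the 9, and DESeq2 called 2 of all genes), with estimates of -0.21 (Ugt8a) to -0.06 (Mag) and adjusted p of 0.999.

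Mag lies 481.6 kb from Tyrobp on chromosome 7, where sequence from the strain in which a deletion was made can stay linked to it. Of 73 tested genes within 1 Mb of Tyrobp, which was itself left out, 4 were called higher and 4 lower in TyrobpKO against WT (11.0%). In Q175_TyrobpKO against Q175, 4 were higher and 3 lower (9.59%). Within 5 Mb, 6 were higher and 8 lower of 207 in each comparison (6.76%). Mag was not among them: its log2 fold changes were 0.13 (adjusted p = 0.841) and 0.07 (adjusted p = 0.937).

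The 9 genes varied together between libraries. Over 24 libraries, each gene's Pearson r with the mean of the other 8 ran from 0.709 (Ugt8a) to 0.942 (Mbp). After genotype and sex means were subtracted, r was 0.690 for Ugt8a and 0.934 to 0.960 for the other 8. These values describe libraries that share depth, dissection and scaling. WT replicate 6 was the highest of all 24 for Mog, Mag, Cnp, Mal, Cldn11 and Myrf. WT replicate 4 was the lowest of all 24 for 5 genes, Mbp, Mog, Mag, Cnp and Myrf. Genes whose log2 CPM was most like the mean of the 9 over the 24 libraries were Ndrg1 (r = 0.964), Tmem63a (0.947), Prr18 (0.946), Gpr37 (0.944), Gatm (0.942) and Pacs2 (0.929). With genotype and sex means subtracted they were Opalin (0.961), Prr18 (0.960), Plekhb1 (0.958), Ndrg1 (0.957), Tmem88b (0.952) and Septin4 (0.949).

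A list of 29 further genes of myelin and mature oligodendrocytes was counted in the same fits. In Q175 against WT, their median log2 fold change was -0.01. Of the 29, 1 was called lower and none higher, against 5.47% and 4.15% of all genes. The gene called was Car2, a carbonic anhydrase abundant in oligodendrocytes, at 247 ± 31.9 CPM in WT and 191 ± 26.5 CPM in Q175 (log2 -0.37 ± 0.10, edgeR adjusted p = 0.0198). Hapln2, a link protein of the node of Ranvier, had a log2 fold change of -0.32 (adjusted p = 0.0598). On the deletion background (Q175_TyrobpKO against TyrobpKO), the median of the 29 was -0.13. Of the 29, 3 were lower and none higher, against 3.08% and 2.78% of all genes. Car2 fell by 32.4% (log2 -0.57, adjusted p = 0.00115), and the others, named after their values were seen, were Tspan2, a tetraspanin (-0.46, 0.0226), and Fa2h, which hydroxylates the fatty acids of galactolipids (-0.41, 0.0190). Fa2h acts in the same lipid pathway as Ugt8a.

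In TyrobpKO against WT, 28 of the 29 genes had fold changes above 0 (median log2 0.16), and in Q175_TyrobpKO against Q175 14 of 29 did (median -0.0013). In each of these comparisons 1 of the 29 was called, against 0.117% and 0.158% of all genes. Klk6, a secreted protease of oligodendrocytes, ran from 8.81 to 14.9 CPM in WT and from 17.1 to 25.5 CPM in TyrobpKO, without overlap (log2 0.87 ± 0.16, edgeR adjusted p = 0.00980). It ran from 6.15 to 12.9 CPM in Q175 and from 17.1 to 24.5 CPM in Q175_TyrobpKO, again without overlap (log2 1.01 ± 0.16, edgeR adjusted p = 0.00160). Klk6 lies at chr7:43824499-43832030, on the chromosome of Tyrobp. Ppp1r14a, also on chromosome 7, had log2 fold changes of -0.23 and -0.25 in the 2 comparisons and was not called.

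Some precursor and differentiation genes were higher with the Q175 allele. Of 21 such genes, 3 were called higher and none lower in Q175 against WT, against 4.15% and 5.47% of all genes. The median log2 fold change of the 21 was -0.0040. Zfp488, a transcriptional regulator of oligodendrocyte differentiation, ran from 4.41 to 5.95 CPM in WT and from 7.26 to 10.9 CPM in Q175, without overlap (log2 0.79 ± 0.12, edgeR adjusted p = 8.18e-05). Enpp6, a marker of newly forming oligodendrocytes, ran from 18.6 to 25.9 CPM in WT and from 27.5 to 38.2 CPM in Q175, also without overlap (log2 0.59 ± 0.11, edgeR adjusted p = 0.000782). Lhfpl3, a gene of precursor cells named here after its value was seen, had a log2 fold change of 0.43 (adjusted p = 0.0295). In Q175_TyrobpKO against TyrobpKO, 1 of 21 was higher and 1 lower, against 2.78% and 3.08% of all genes. They were Zfp488 again (0.78, adjusted p = 0.000176) and Ptprz1 (-0.20, adjusted p = 0.0433), also named after its value was seen. Enpp6 was at 0.30 there (adjusted p = 0.117). None of the 21 was called in either comparison of Tyrobp deletion. In Q175_TyrobpKO against Q175 the smallest p were those of Olig2, at 0.20, and Neu4, at -0.22.

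Myelin needs cholesterol made within the brain, so 22 genes of its synthesis were counted. None was called in Q175 against WT, against 9.63% of all genes, with a median of -0.02. Msmo1, an oxidase of late cholesterol synthesis, had a log2 fold change of -0.28 (adjusted p = 0.0636), and Srebf2, which controls the pathway, -0.15 (adjusted p = 0.104). In Q175_TyrobpKO against TyrobpKO the median was -0.13, and 2 of 22 were lower and none higher, against 3.08% and 2.78% of all genes. They were Msmo1 (-0.48, adjusted p = 0.00255) and Idi1, an isomerase of isoprenoid units (-0.38, adjusted p = 0.0375). None was called for Tyrobp deletion, where Idi1 and Cyp51 in Q175_TyrobpKO against Q175 stood at -0.35 and -0.17.

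**Figure D4:**
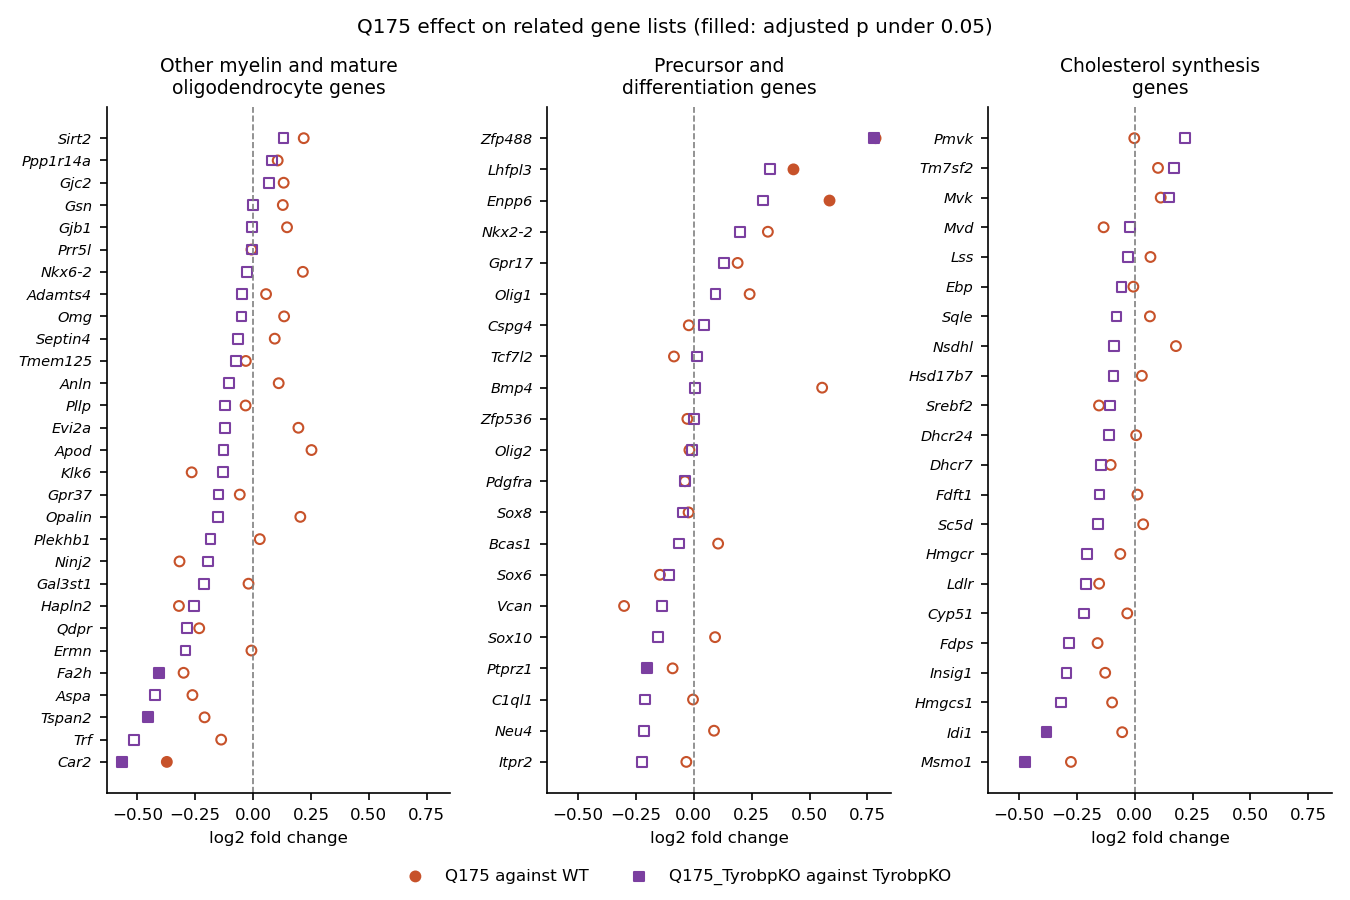
Log2 fold change (x axis) of 29 further myelin genes, 21 precursor and differentiation genes and 22 cholesterol synthesis genes (y axis) for Q175 against WT (circles) and Q175_TyrobpKO against TyrobpKO (squares). Filled symbols are adjusted p under 0.05; Car2, Tspan2, Fa2h, Ptprz1, Msmo1 and Idi1 are filled to the left, and Zfp488, Enpp6 and Lhfpl3 to the right.

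Genes of other cells moved in the same comparisons. Of all genes, 5.47% were called lower and 4.15% higher in Q175 against WT, and 3.08% and 2.78% in Q175_TyrobpKO against TyrobpKO. Of 12 markers of striatal projection neurons, 11 were called lower in Q175 against WT (median log2 -0.77), and their sum was 8044 to 12716 CPM in WT and 5270 to 7324 CPM in Q175. With Tyrobp deleted in both groups, 7 of 12 were lower (median -0.49). Of 10 astrocyte markers, 3 were lower and 1 higher in Q175 against WT, and 3 were lower in Q175_TyrobpKO against TyrobpKO, with sums of 4787 to 5244 CPM in WT and 3847 to 4595 CPM in Q175. Of 10 microglia markers, none was called in these comparisons and 1 was lower in Q175_TyrobpKO against Q175. The 8 choroid plexus markers had 2 called higher in Q175 against WT and none in Q175_TyrobpKO against TyrobpKO, and no cortical neuron marker was called in either. Of 4 Schwann cell markers, 1 was lower in the second of these, Prx (log2 -1.10, adjusted p = 0.0174), named after its value was seen. In TyrobpKO against WT, where the 9 myelin genes were all above 0, no marker of these lists was called, yet 12 of 12 projection neuron markers were below 0 (median -0.30, 6 with an unadjusted p under 0.05), as were 10 of 10 microglia markers (median -0.11, 3 with an unadjusted p under 0.05), and 8 of 8 cortical neuron markers were above 0 (median 0.86, none with an unadjusted p under 0.05). Summed cortical neuron markers were 42.7 to 665 CPM in WT and 419 to 911 CPM in TyrobpKO. The part of any of these in the myelin gene results was not tested.

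Both sexes were examined for the Q175 effect. In Q175 against WT, females exceeded males for 9 of 9 genes, by 0.23 to 0.43 in log2 fold change, and the difference was called for none (edgeR adjusted p of 0.9997 for each), nor for any of the 19667 genes, 747 of which had an unadjusted p under 0.05. Ugt8a had -0.11 in females and -0.54 in males, and Mobp -0.15 and -0.45. In the averaged contrast, Mobp, Mal, Cldn11 and Ugt8a were called in males alone and Ugt8a in females alone, with 3 animals of each genotype and sex.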

How the data were processed

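RNA of 24 striatum libraries, 1 per animal, was sequenced by a commercial provider after Trizol extraction, per the labels' protocols. The authors deposited raw read counts per gene, whole numbers with no normalization, in 1 table. The submitters' processing notes name STAR, featureCounts and DESeq2, without versions, and the build GRCh38, which is human. Of the gene identifiers in the table, 54495 were found in GENCODE M21 (GRCm38), all on the same chromosome and 98.3% with the same start and end, including all 9 genes. Coordinates are therefore given on GRCm38, counted from 1. Use of strand in counting is not given in the sources used here, so reads of overlapping or antisense genes may be included.

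The counts were tested with edgeR 4.0.16 (R 4.3.3), quasi-likelihood with robust fitting, TMM scaling and the filter of filterByExpr by genotype. The 24 libraries were fitted together, with coefficients for the 4 genotypes and for sex. P-values were Benjamini-Hochberg adjusted over 19667 genes and called under 0.05. CPM are TMM-scaled, log2 CPM use a prior count of 2, and RPKM use the deposited gene lengths. The procedure was tested on simulated data. Compared by pairs, 60 in all, libraries of like genotype had a mean chi-square per gene of 6.89 to 42.6, so none was a duplicate. Whether animals shared litters was not given.

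The 9 genes and all lists were chosen with earlier results of these data known. Named genes are the 9, the 2 of smallest p per related list for the Q175 allele (WT background) and for the deletion (Q175 background), those called with Tyrobp deletion, and the 6 most alike. Gene lists covered other myelin genes (1 gene of this list is not reported here), precursor and differentiation, cholesterol synthesis, and markers of projection and cortical neurons, microglia, astrocytes, choroid plexus, Schwann and endothelial cells. Of 6 endothelial markers, none was called in Q175 against WT and 2 were lower in Q175_TyrobpKO against TyrobpKO, where 3.08% of all genes were lower. Alternatives were other scalings, no filter, DESeq2 1.42.0, limma-voom (limma 3.58.1), no sex term, each sex, only the genotypes compared, and each library left out.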

Additional observations from a re-analysis of the deposited data

Results flagged for a closer look

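WT replicate 6, a female, stood apart from the other 5 WT libraries for 2 of the 9 genes. Mobp was 2326 CPM there, with a gap to the next library of 0.632 of the group's range, and Mog was 139 CPM, with a gap of 0.678. Both gaps pass the 95% critical value of Dixon's test for 6 libraries. Of 36 groups checked (9 genes in 4 genotypes), 2 passed, and chance flags about 1 in 20.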

How the results depend on the processing

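The 4 genes called lower in the averaged Q175 effect were called under every other scaling, without a filter, without a sex term, with DESeq2 (5 called), with limma-voom and in males. Females alone gave 1. For Q175 against WT, the count of 0 became 1 (Mobp) with DESeq2 and without WT replicate 4 (range 0 to 1 over left-out libraries). For Q175_TyrobpKO against TyrobpKO, the count of 3 became 0 in males alone, 1 in females alone and 0 without the 4 libraries high in choroid plexus markers, and 2 to 4 when single libraries were left out. It was 2, without Mal, with total counts, with no filter and without the libraries low in cortical neuron markers, and 4, with Cldn11, with DESeq2. No count of the 9 for Tyrobp deletion or the interaction differed from 0 under any alternative run. Males or females alone leave 3 libraries a genotype, and the cause of the other changes was not tested. Total-count scaling moved the median of all genes by less than 0.1 (log2).

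Values that changed sign were all uncalled and near 0. For Q175 against WT, males alone gave -0.026 for Mog, -0.095 for Mag, -0.045 for Cnp and -0.13 for Myrf. There, leaving out the libraries high in choroid plexus markers gave -0.024 for Myrf, and leaving out those low in cortical neuron markers gave -0.076 for Mag, -0.030 for Cnp and -0.099 for Myrf. For Q175_TyrobpKO against Q175, males alone gave 0.057 for Mobp, 0.12 for Mog, 0.062 for Mal and 0.12 for Ugt8a, females alone -0.017 for Cnp and -0.072 for Cldn11, and the 2 reduced sets -0.026 for Cnp and -0.035 for Cldn11. For Q175_TyrobpKO against TyrobpKO, total counts gave 0.049 for Mag, 0.047 for Cnp and 0.00048 for Myrf, and females alone 0.058 for Mog, 0.11 for Mag, 0.089 for Cnp and 0.039 for Myrf. The interaction, without the libraries low in cortical neuron markers, was 0.069 for Mag, 0.016 for Cnp and 0.059 for Myrf. In the averaged effect, total counts gave 0.035 for Myrf, females 0.095 for Myrf, males -0.095 for Mog, -0.11 for Mag and -0.078 for Cnp, and the set without libraries low in cortical neuron markers -0.041 for Mag and -0.022 for Cnp.

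With single libraries left out, ranges that crossed 0 were -0.038 to 0.16 (Mag) and -0.054 to 0.084 (Myrf) in Q175 against WT. In Q175_TyrobpKO against Q175 they were -0.0087 to 0.10 (Cldn11), -0.041 to 0.074 (Cnp), -0.099 to 0.012 (Mal), -0.0093 to 0.084 (Mbp), -0.089 to 0.018 (Mobp), -0.065 to 0.040 (Mog) and -0.017 to 0.098 (Myrf). In Q175_TyrobpKO against TyrobpKO they were -0.058 to 0.049 (Cnp), -0.057 to 0.068 (Mag) and -0.12 to 0.029 (Mog). In the interaction they were -0.16 to 0.035 (Mag) and -0.13 to 0.0026 (Myrf), and in the averaged effect -0.021 to 0.079 (Mag), -0.012 to 0.083 (Mog) and -0.054 to 0.017 (Myrf).

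Counts over all genes differed by more than 1.5 times as follows. For Q175 against WT, 1893 became 759 in males, 187 in females and 1186 without the libraries high in choroid plexus markers. For TyrobpKO against WT, 23 became 65 in males and 8 in females. For Q175_TyrobpKO against Q175, 31 became 52 with DESeq2, 11 in males, 11 in females and 14 without the libraries high in choroid plexus markers. For Q175_TyrobpKO against TyrobpKO, 1153 became 1736 with total counts, 104 in males, 290 in females and 493 without the libraries high in choroid plexus markers. For the averaged Q175 effect, 3544 became 1242 in males and 1195 in females. For the interaction, 0 became 2 with DESeq2, 1 with limma-voom and 0 to 2 with single libraries left out. No paired analysis was possible because the labels carry no replicate numbers. Each of the 9 genes had at least 1859 reads in every library, and an effect of depth was not tested. Each animal gave 1 library, so the spread between animals and that from dissection or library preparation cannot be told apart.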
